A study of Mus musculus with 11 samples.

Results

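The rows named mmu-miR-21a-5p, mmu-miR-21a-3p and mmu-miR-21b are 3 of the 2128 rows of a miRNA count table from sorted mouse CD8+ T cells. The first pair are the 5′ and 3′ arms of 1 hairpin, mir-21a, and miR-21b is a paralog from another locus. The rows were taken by name over all 11 libraries. miR-21a-5p was chosen by its measured VM-minus-TN difference, the high level in virtual memory (VM) cells relative to true naive (TN) cells already known from these libraries, and miR-21a-3p and miR-21b were taken with it by name. The comparison of the cell subsets is therefore given below as a description with no test. The comparison of dirty with clean mice, on which the rows were not picked, is tested. It uses the same libraries, and the rows were picked with earlier results of these data known. Its p-values are therefore not independent of the choice. All 3 rows passed the filter on low counts, which kept 545 rows for testing. The row of miR-21c, a second paralog, is shown beside them because its sequence overlaps theirs.

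Each library held small RNA from spleen cells enriched for CD8 with CD8a beads and then sorted as CD4- CD8+ CD49dlo GFP+. Within that gate, the CD44hi fraction is named stamped VM (virtual memory, a memory-like phenotype found without a known encounter with foreign antigen) and the CD44lo fraction is named stamped TN (true naive). Dirty_VM, Clean_VM and Dirty_TN had 3 libraries each, and Clean_TN had 2, replicates 2 and 3. Purity after the sort was over 95%, and RNA came from 10000 sorted cells per sample, per the labels. All 4 groups share the organ, the bead enrichment and the CD49dlo GFP+ gate. The labels do not define dirty, clean or stamped, do not say what drives the GFP, and give no strain, age or sex. Nothing states that replicates came from separate animals, so the p-values measure the spread between these libraries, which may be technical. All levels are bulk values, in which fewer cells of a type and less RNA per cell cannot be told apart.

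A miRNA hairpin is cut to a short duplex, and usually 1 of its arms is kept in an Argonaute protein while the other, the passenger, is degraded. The kept arm finds target mRNAs mainly through its seed, bases 2 to 8, and lowers their stability and translation. miR-21 is among the most studied mammalian miRNAs. It is induced when T cells are activated, responds to STAT3 and AP-1, and has known targets that include Pdcd4, which restrains translation.

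The mature sequences below are from RefSeq (GRCm38.p6), 5′ to 3′, with the seed in capitals, and are shown because the seed of miR-21a-5p is that of miR-21c but not that of miR-21b, and because these 3 sequences share a stretch that overlaps the seed.
miR-21a-5p: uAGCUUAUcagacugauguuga
miR-21c: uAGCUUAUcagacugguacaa
miR-21b: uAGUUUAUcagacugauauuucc
miR-21a-3p: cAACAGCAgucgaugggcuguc
miR-21a-5p and miR-21c share a seed, and no other mature miRNA of that sequence table has it. The seeds of miR-21b and of miR-21a-3p are each shared with no other mature miRNA there. Counted from 1 at the 5′ end of miR-21a-5p, miR-21b differs by C4U, which lies in the seed, and by G18A, G21U and A22C, and is 1 base longer at 23 bases. miR-21c differs by A16G, G18A, U19C, U20A and G21A, all behind the seed, and has 21 bases. A run of 11 bases, UUAUCAGACUG at positions 5 to 15, is common to miR-21a-5p, miR-21b and miR-21c. The run shared with miR-21a-5p extends to 13 bases in miR-21b and to 15 bases in miR-21c.

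Mir21a lies on the minus strand at chr11:86584067-86584158 (GRCm38, the mm10 build), inside exon 12 of the Vmp1-201 transcript and in its untranslated part, on the strand of Vmp1, which encodes a membrane protein needed for autophagy. Mir21b lies on the plus strand at chr3:29636744-29636851, within Egfem1 and on its strand but overlapping none of its annotated exons. Mir21c lies on the minus strand at chr8:128278148-128278225, where the annotation (GENCODE M21) has no other gene. The RefSeq hairpin of Mir21a has 92 bases and a computed minimum free energy of -46.2 kcal/mol, and 15.5% of 1005 mouse hairpins had a lower energy per base. Mir21b has 108 bases at -25.3 kcal/mol and Mir21c 78 bases at -23.5 kcal/mol, with 97.6% and 88.4% of hairpins lower. In these folds 19 of the 22 bases of miR-21a-5p and 21 of the 22 of miR-21a-3p were paired, against 16 of 23 in miR-21b and 12 of 21 in miR-21c.

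Total counts ran between 2614396 and 16312004 per library. The libraries fell into 5 shallow ones, all under 5000000 counts, and 6 deep ones, and every group held both kinds. Dirty_TN replicate 3 stood apart from its group. Its chi-square per degree of freedom against Dirty_TN replicate 1 was 1804 over the rows, while the other pairs of libraries within groups lay between 37.1 and 535. This measure grows with depth, and both of these libraries were deep. Clean_VM replicates 2 and 3, also both deep, stood at 221. The differences in TN cells and the interaction are given with and without Dirty_TN replicate 3. miRNAs abundant in T lymphocytes were found in all 11 libraries, led by miR-150-5p between 66249 and 134281 CPM (the count scaled to a fixed library size, here on totals adjusted by the TMM method). miR-181a-5p was lower in VM, at 503 to 652 CPM in Dirty_VM against 1439 to 2223 in Dirty_TN. miR-142a-5p was also lower, at 1625 to 3030 against 3173 to 3916. In dirty mice miR-150-5p, miR-142a-3p and miR-342-3p overlapped between subsets.

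miR-21a-5p was among the most abundant miRNAs of these cells, and its level on TMM-scaled totals ordered all 4 groups with no overlap. In the Dirty_VM libraries it stood at 54957, 49164 and 59118 CPM, a mean of 54413 ± 4999 (SD, n = 3). In Clean_VM it stood at 32735, 26507 and 31136 CPM, a mean of 30126 ± 3234 (SD, n = 3). Each Dirty_VM library was above each Clean_VM library, and both sets were far above the naive cells. In Dirty_TN it stood at 11907, 11901 and 14751 CPM, a mean of 12853 ± 1644 (SD, n = 3). In Clean_TN it stood at 8498 and 10227 CPM, a mean of 9362 ± 1223 (SD, n = 2). The lowest Dirty_TN library was above the higher Clean_TN library, by less than either group's own range. As a share of all counts, miR-21a-5p took 5.53% ± 0.82 in Dirty_VM, 2.83% ± 0.23 in Clean_VM, 1.26% ± 0.35 in Dirty_TN and 1.02% ± 0.10 in Clean_TN. By that share the naive groups overlapped, with Dirty_TN replicate 1 at 0.986% and Clean_TN replicate 3 at 1.09%. miR-21a-5p ranked 4 or 5 in Dirty_VM libraries, 7 in each Clean_VM library, 11 to 16 in Dirty_TN and 16 in both Clean_TN libraries. These ranks are among miRNA names, each taken at its highest row.

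**Figure D1:**
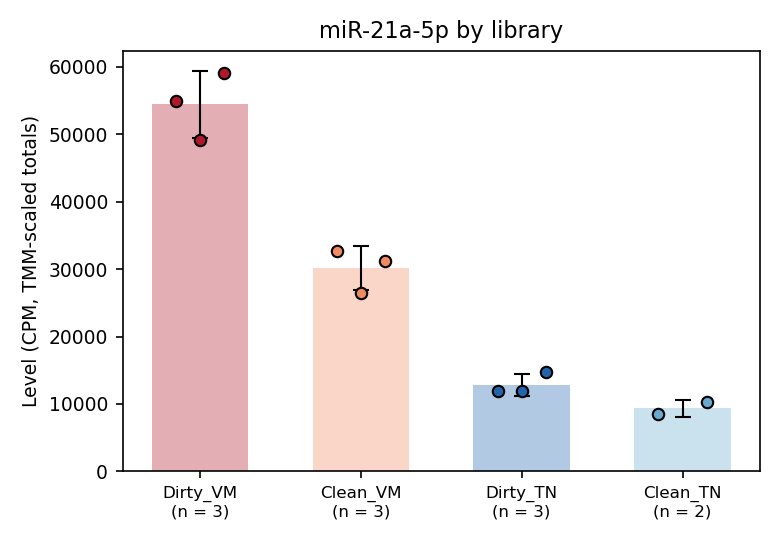
Level of miR-21a-5p in each library (points), with bars at the group mean and error bars of 1 SD, in CPM on TMM-scaled totals. The Dirty_VM libraries sit at 49164 CPM or above, the Clean_VM libraries between 26507 and 32735, and on this scale no group overlaps another.

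Between dirty and clean mice, miR-21a-5p was higher in dirty mice in both subsets, by an amount that did not pass the adjusted threshold in the edgeR fit. In VM cells the ratio of mean levels was 1.81, and the fitted log2 difference, dirty minus clean, was 0.85 ± 0.17 (SE), with an adjusted p of 0.089 in edgeR's quasi-likelihood test over 545 rows. In TN cells the ratio was 1.37 and the log2 difference 0.46 ± 0.19, with an adjusted edgeR p of 0.559. The TN value was 0.12 without Dirty_TN replicate 3 and 0.25 without Clean_TN replicate 2. Averaged over both subsets the log2 difference was 0.66 ± 0.13, with an adjusted edgeR p of 0.0882. In the VM and in the averaged comparison miR-21a-5p had the smallest p of all rows, 1.89e-04 and 1.62e-04 before adjustment by the edgeR test. It did not have the largest difference: its log2 difference, with sign, was above that of 88.8% of rows in VM and 90.1% averaged. Both comparisons use libraries by which the row was also picked.

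No row passed the adjusted threshold of 0.05 in any dirty-minus-clean comparison, so 0 of the 3 members did, against 0% of the 545 rows. At an unadjusted edgeR p under 0.05 there were 81 rows in VM (14.9%, with 9.36% higher in dirty mice), 38 in TN (6.97%, with 5.69% higher) and 28 averaged (5.14%, with 4.22% higher). All 3 members were among those higher in VM, and miR-21a-5p alone of the 3 was among those higher in TN and averaged. DESeq2 called 14, 3 and 1 rows in the VM, TN and averaged comparisons, and limma-voom called 1, 0 and 1. miR-21a-5p passed in VM with DESeq2, at a log2 difference of 0.80 and an adjusted p of 0.0036, and with limma-voom, at 0.87 and an adjusted p of 0.039. Without Dirty_TN replicate 3, which is in neither group of this comparison but shares its estimate of spread and its scaling, the log2 difference in VM was 0.82 and the adjusted edgeR p 0.0068. Without Dirty_TN replicate 1 these values were 0.81 and 0.035. Over 23 alternatives the log2 difference in VM ran between 0.71 and 0.97 and its adjusted p between 0.0027 and 0.998, with 8 under the threshold. In TN cells the log2 difference ran between 0.04 and 0.56 over 23 alternatives, none under the threshold.

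In CPM on TMM-scaled totals, libraries of each dirty group lay wholly above those of the clean group for 12.5% of rows in VM and for 14.3% in TN. All 3 members, which are not separate observations, did so in VM, and miR-21a-5p alone of the 3 in TN. Only 6 rows (1.1%) did so in both subsets. On the same scale 1 other row, miR-96-5p, shared the complete order of miR-21a-5p, so that 2 rows (0.367%) had it. The order is Dirty_VM above Clean_VM above Dirty_TN above Clean_TN with no overlap. It includes VM above TN, by which miR-21a-5p was picked, so how rare it is was partly set by that choice. By the share of all counts miR-21a-5p did not keep this order, since its naive groups overlapped.

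The 3p arm was rare, with 302 counts in all libraries together and 3 to 113 in a library. In Dirty_VM it stood at 5.65, 11.5 and 6.79 CPM, and in Clean_VM at 5.10, 2.24 and 3.21 CPM. The lowest Dirty_VM library was just above the highest Clean_VM library. In Dirty_TN it stood at 1.16, 0.865 and 2.11 CPM, and in Clean_TN at 2.09 and 2.11 CPM. The naive groups overlapped, and the mean was lower in Dirty_TN, at 1.38 ± 0.65 CPM (SD, n = 3), than in Clean_TN, at 2.10 ± 0.01 CPM (SD, n = 2). The log2 difference, dirty minus clean, was 1.20 ± 0.45 (SE) in VM with an adjusted edgeR p of 0.209. In TN it was -0.53 ± 0.53 with an adjusted edgeR p of 0.808. Without Dirty_VM replicate 2 the VM value was 0.74, and without Dirty_TN replicate 3 the TN value was -1.22, neither past the threshold.

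miR-21b, as the table lists it, was as rare, with 8 to 188.17 estimated counts in a library. In Dirty_VM it stood at 17.6, 10.1 and 11.3 CPM, and in Clean_VM at 6.26, 5.28 and 4.55 CPM, with no overlap. In Dirty_TN it stood at 1.54, 2.31 and 3.31 CPM, and in Clean_TN at 2.38 and 3.56 CPM, with overlap. The log2 difference, dirty minus clean, was 1.30 ± 0.36 (SE) in VM with an adjusted edgeR p of 0.136, and -0.25 ± 0.43 in TN with an adjusted edgeR p of 0.890. Without Dirty_TN replicate 3 the VM difference was 1.28 with an adjusted edgeR p of 0.048, and the TN difference was -0.85 with 0.352. The TN difference was -0.10 without Dirty_TN replicate 1, -0.64 without Clean_TN replicate 2 and -0.04 without Clean_TN replicate 3.

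**Figure D2:**
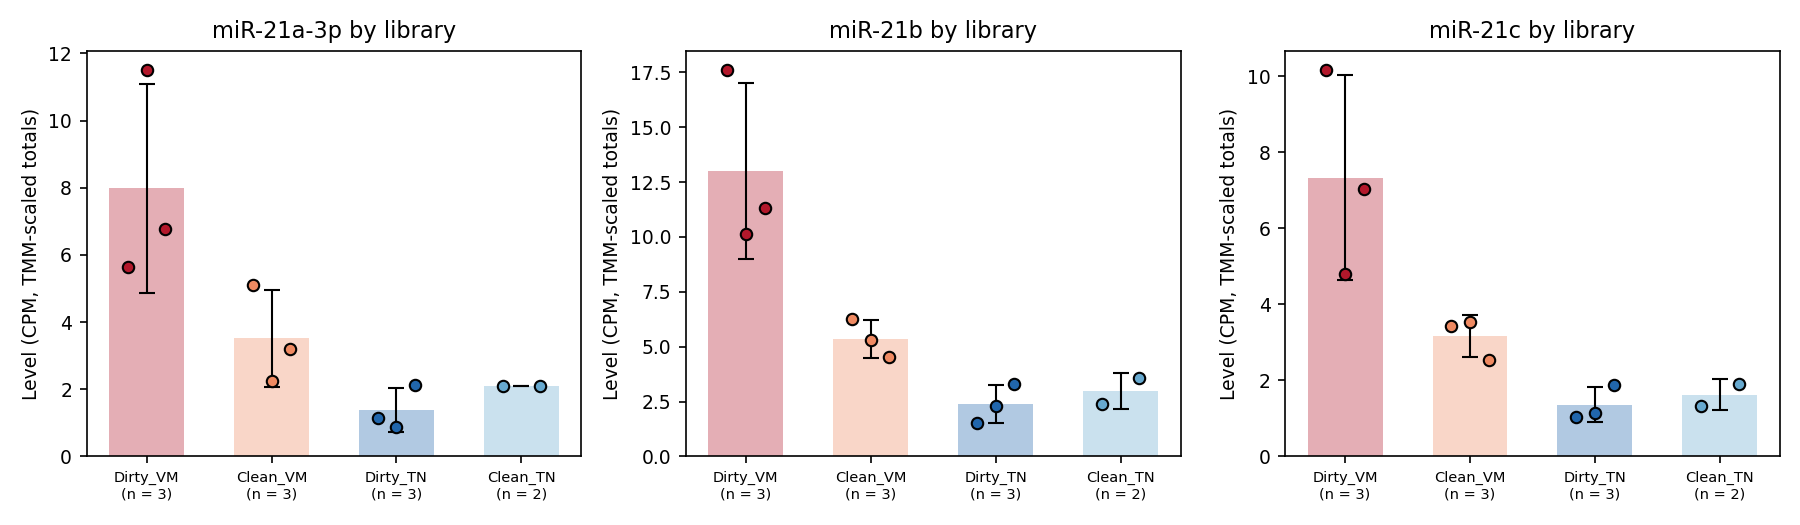
Levels of miR-21a-3p, miR-21b and miR-21c in each library (points), with bars at the group mean and error bars of 1 SD, in CPM on TMM-scaled totals and with a separate vertical scale in each panel. In each panel the Dirty_VM libraries lie above the Clean_VM libraries, and the Dirty_TN and Clean_TN libraries overlap.

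The counts of miR-21b are uncertain, because the authors' counting could split reads among it and its relatives. The values of miR-21a-5p, miR-21b and miR-21c were not whole in 9 of 11 libraries each, and in all 11 each was a multiple of a sixth within 0.02. The sum of the 3 rows was whole in 8 libraries and ended at 0.5 in 3, and miR-21b minus miR-21c was a multiple of 0.5 in all 11. miR-21a-3p, whose sequence is unlike theirs, was whole in all 11. miR-21b stood at 0.0130% to 0.0348% of miR-21a-5p in a library and at 1.50 to 2.11 times miR-21c. The log2 levels of miR-21b and miR-21c correlated at Pearson's r = 0.99 over the 11 libraries, and those of miR-21b and miR-21a-5p at 0.92, from the same libraries and from rows that may share reads. miR-21c averaged 7.33 ± 2.70 CPM in Dirty_VM, 3.17 ± 0.55 in Clean_VM, 1.35 ± 0.46 in Dirty_TN and 1.62 ± 0.40 in Clean_TN (SD, n = 3, 3, 3 and 2). The part of divided reads in the differences of miR-21b was not tested.

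**Figure D3:**
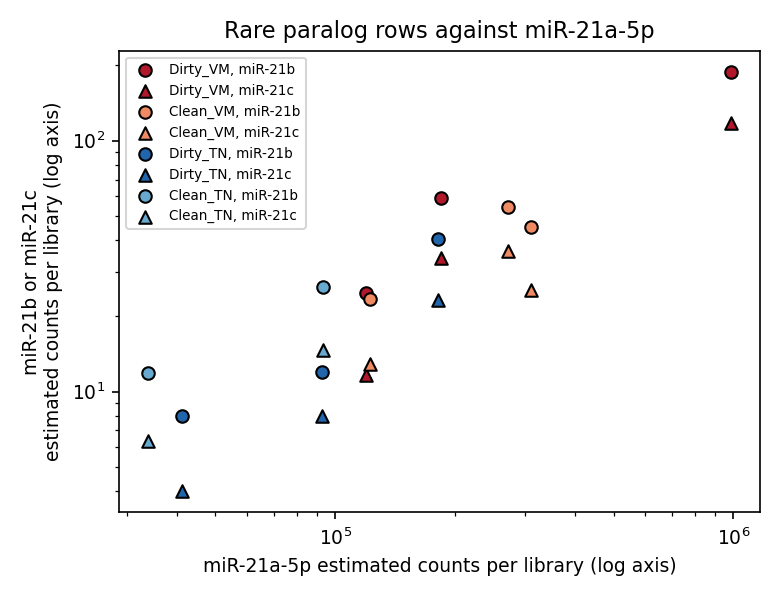
Estimated counts of miR-21b (circles) and miR-21c (triangles) against those of miR-21a-5p in each library, coloured by group, both axes on a log scale. The highest share of miR-21a-5p that either row reaches is 0.0348%, and miR-21b lies above miR-21c in every library.

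The differences between subsets, by which miR-21a-5p was picked, are described here without a test. The mean level of miR-21a-5p in Dirty_VM was 4.23 times that in Dirty_TN, and the mean in Clean_VM was 3.22 times that in Clean_TN. The fitted log2 differences, VM minus TN, were 2.08 ± 0.17 (SE) in dirty mice and 1.69 ± 0.20 in clean mice, beside medians of 0.02 and 0.08 over all 545 rows. For miR-21a-3p they were 2.42 ± 0.47 in dirty mice and 0.70 ± 0.53 in clean mice. For miR-21b they were 2.41 ± 0.38 in dirty mice and 0.86 ± 0.43 in clean mice. In clean mice the value of miR-21a-3p was 0.43 without Clean_VM replicate 1, and that of miR-21b was 0.47 without Clean_TN replicate 2. Over all rows the fit called 66 for VM minus TN in dirty mice (12.1%), 95 in clean mice (17.4%) and 129 averaged (23.7%). Libraries of Dirty_VM lay wholly above those of Dirty_TN for all 3 rows, as for 17.1% of all rows, and libraries of Clean_VM above those of Clean_TN for all 3, as for 28.4%.

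The interaction, VM minus TN in dirty mice less VM minus TN in clean mice, was 0.40 ± 0.25 (SE, log2) for miR-21a-5p, given with no test because it is built from the differences by which that row was picked. It was tested for the other rows, which were taken by name but are not independent of miR-21a-5p. miR-21a-3p is from the same hairpin, and miR-21b may share reads with miR-21a-5p. For miR-21a-3p the interaction was 1.72 ± 0.69 with an adjusted edgeR p of 0.240, and for miR-21b 1.55 ± 0.56 with an adjusted edgeR p of 0.203. Again 0% of rows passed, while 93 rows (17.1%, with 6.97% above 0) had an unadjusted edgeR p under 0.05, among those above 0 miR-21a-3p and miR-21b, and DESeq2 called 25 and limma-voom 0. Without Dirty_TN replicate 3 the interaction was 0.70 for miR-21a-5p. It was then 2.38 for miR-21a-3p and 2.12 for miR-21b, with adjusted edgeR p-values of 0.039 and 0.027, so both of these calls turned on that library.

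**Figure D4:**
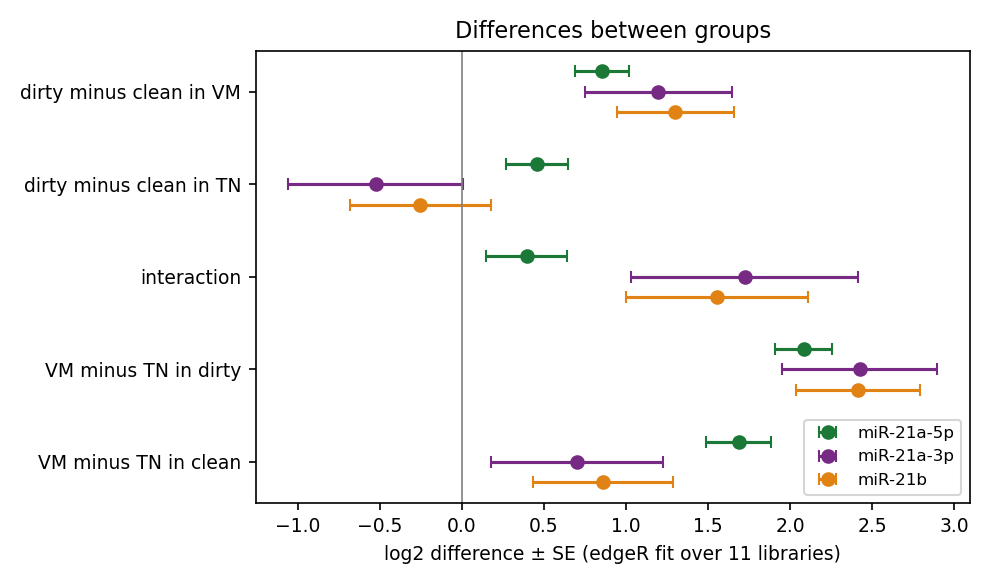
Log2 differences (points) with 1 SE (bars) of the edgeR fit over 11 libraries, for miR-21a-5p, miR-21a-3p and miR-21b, in each comparison. All 3 rows lie above 0 for dirty minus clean in VM, at 0.85, 1.20 and 1.30, and miR-21a-3p and miR-21b lie below 0 in TN, at -0.53 and -0.25.

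The arms of mir-21a were very unequal. Over all libraries the 5p arm had 8065 times the counts of the 3p arm, and the 3p share of both arms was between 0.00727% (Dirty_TN replicate 2, exact 95% binomial interval 0.00150% to 0.0212%) and 0.0246% (Clean_TN replicate 2, interval 0.0156% to 0.0370%). These intervals cover counting error only, since reads copied by PCR are not independent molecules. The log2 ratio of 5p to 3p counts, in which library scaling cancels, averaged 12.80 ± 0.64 in Dirty_VM, 13.14 ± 0.45 in Clean_VM, 13.28 ± 0.49 in Dirty_TN and 12.12 ± 0.18 in Clean_TN (SD, n = 3, 3, 3 and 2). Dirty minus clean, averaged over the subsets, was 0.41 (exact permutation test within subsets, two-sided, p = 0.32, where the smallest p that 200 arrangements allow is 0.005). Within VM it was -0.34 (exact p = 0.6) and within TN 1.17 (exact p = 0.2), so the average joins differences of opposite sign. The log2 ratio ran between 12.77 and 13.75 in Dirty_TN and between 11.99 and 12.24 in Clean_TN. In VM it ran between 12.06 and 13.25 in Dirty_VM and between 12.65 and 13.53 in Clean_VM. VM minus TN was -0.48 in dirty mice and 1.03 in clean mice, given with no test. Neither subset alone can reach 0.05, since the smallest p that its arrangements allow is 0.1. Libraries held as few as 3 counts of the 3p arm, which limits the precision of their ratios.

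**Figure D5:**
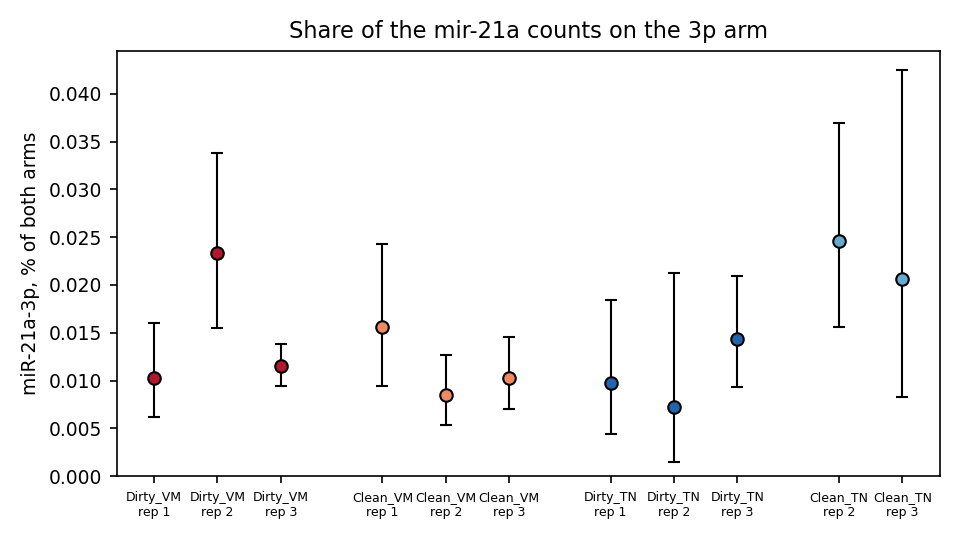
Share of the 3p arm among all mir-21a counts in each library, in percent, with exact 95% binomial intervals that cover counting error only. The shares lie between 0.00727% and 0.0246%, and most intervals overlap.

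The mean of miR-21a-5p was higher in dirty mice in both depth classes, with little difference in TN in the shallow one. As differences of log2 mean CPM, dirty minus clean in VM was 0.67 in shallow libraries (2 against 1) and 1.04 in deep ones (1 against 2), and in TN it was 0.22 in shallow libraries (1 against 1) and 0.64 in deep ones (2 against 1). Refitted on shallow libraries alone, with their own scaling, edgeR gave 0.04 ± 0.31 (SE) in TN. VM minus TN was 2.13 and 2.16 in dirty mice and 1.68 and 1.76 in clean mice, shallow and deep. For miR-21a-3p, dirty minus clean in VM was 0.66 in shallow and 1.34 in deep libraries, and in TN -1.28 and -0.42. For miR-21b these values were 1.09 and 1.21 in VM, and -0.63 and -0.08 in TN. With library totals in place of TMM scaling the median of all rows moved by 0.11 in VM and by -0.18 in TN, and miR-21a-5p relative to that median stood at 0.78 in VM and 0.33 in TN, against 0.77 and 0.30 with TMM.

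miR-21 is also abundant in several cell types other than T cells, and summed markers of some of them were mostly higher in VM libraries, each sum carried largely by 1 or 2 miRNAs. The 4 stromal markers, led by miR-143-3p, summed to 75.6 to 109 CPM in Dirty_VM, 62.8 to 105 in Clean_VM, 48.6 to 72.0 in Dirty_TN and 39.9 to 49.3 in Clean_TN. miR-143-3p alone took 69.0 to 84.2 CPM in Dirty_VM and 41.0 to 62.5 in Dirty_TN, while miR-214-3p was at 0.411 to 2.08 CPM in Dirty_VM and 1.73 to 3.25 in Dirty_TN. The 4 erythroid markers, led by miR-486a-5p, summed to 64.3 to 109 CPM in Dirty_VM, 61.5 to 137 in Clean_VM, 37.9 to 76.1 in Dirty_TN and 35.2 to 45.8 in Clean_TN, and miR-144-3p was at 0 in 6 libraries. miR-451a, the main erythroid miRNA, overlapped between subsets, at 13.6 to 24.1 CPM in Dirty_VM, 5.37 to 28.0 in Clean_VM, 9.70 to 26.5 in Dirty_TN and 13.3 to 16.9 in Clean_TN. The 2 endothelial and platelet markers, miR-126a-3p and miR-126a-5p, summed to 29.6 to 53.0 CPM in Dirty_VM, 21.7 to 47.7 in Clean_VM, 15.3 to 29.7 in Dirty_TN and 18.4 to 19.3 in Clean_TN. For these 3 lists Dirty_VM and Clean_VM overlapped, and VM libraries were mostly above TN libraries. The hepatocyte and muscle list was almost wholly miR-122-5p, a liver miRNA, at 1239 to 2473 CPM in Dirty_VM, 1215 to 2738 in Clean_VM, 922 to 1822 in Dirty_TN and 851 to 1071 in Clean_TN. The part of these lists in the miR-21 levels was not tested. The 2 myeloid markers, both arms of miR-223, summed to 1.64 to 2.98 CPM in Dirty_VM, 0.268 to 3.61 in Clean_VM, 0.900 to 2.60 in Dirty_TN and 1.20 to 1.27 in Clean_TN, near 0 in every group, and miR-223-5p was at 0 in 2 libraries. The 3 B cell and epithelial markers, led by miR-200c-3p, summed to 136 to 181 CPM in Dirty_VM, 143 to 182 in Clean_VM, 144 to 167 in Dirty_TN and 114 to 148 in Clean_TN, and overlapped between subsets.

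Across the 11 libraries, the row most like miR-21a-5p in log2 CPM, among 262 rows with a mean of 10 CPM or more, was miR-96-5p, of the miR-183 cluster, at Pearson's r = 0.98. miR-96-5p averaged 18.8 ± 1.6 CPM in Dirty_VM, 13.5 ± 1.0 in Clean_VM, 8.47 ± 0.55 in Dirty_TN and 6.90 ± 0.81 in Clean_TN (SD, n = 3, 3, 3 and 2). It was followed by miR-200a-3p (0.93), miR-139-5p (0.93), miR-1843a-5p (0.90) and miR-1949 (0.90). miR-139-5p, at 10292 ± 1247 CPM in Dirty_VM and 9446 ± 1164 in Clean_VM, and 2876 ± 21 in Dirty_TN and 3035 ± 72 in Clean_TN, separated the subsets more than the environments. The rows most like miR-21a-3p were miR-3068-3p (0.93), miR-1949 (0.86), miR-21a-5p itself (0.85), miR-146a-5p (0.83) and miR-423-3p (0.81). These values describe libraries that share groups and depth, and carry no p.

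Other miRNAs tied to T cell activation and memory were taken as a list of 21, of which 20 were tested. None of the 20 passed the adjusted threshold in edgeR for dirty minus clean in VM, in TN or averaged, or for the interaction, beside 0% of all rows. At an unadjusted edgeR p under 0.05 there were 6 of the 20 in VM, 3 in TN, 5 averaged and 5 for the interaction. Of all 545 rows there were 81, 38, 28 and 93 (14.9%, 6.97%, 5.14% and 17.1%). Each was a larger share of the list than of all rows, and the list was chosen with earlier results known. DESeq2 called 2 of the list higher in TN, where it called 3 rows in all. For the interaction it called 1 of the list higher and 2 lower, of 25 rows in all. The median log2 difference, dirty minus clean, was 0.07 over the list and 0.08 over all rows in VM, and 0.09 and 0.16 in TN, where miR-21a-5p had 0.85 and 0.46. For VM minus TN in dirty mice, 4 of the 20 were higher and 3 lower, beside 6.24% of all rows higher and 5.87% lower. The 4 higher were miR-96-5p at a log2 difference of 1.15, miR-146a-5p, which restrains NF-kB signalling, at 1.12, miR-221-3p at 1.09 and miR-222-3p, its cluster partner, at 0.87. The 3 lower were miR-181a-5p, which raises T cell receptor sensitivity in developing T cells, at -1.82, miR-132-3p at -1.33 and miR-24-3p at -0.55. miR-21a-5p had 2.08 in the same comparison. In clean mice 7 of the 20 were higher and 5 lower, beside 9.72% of all rows higher and 7.71% lower, and averaged over both 7 were higher and 7 lower, beside 11.4% and 12.3%. The cluster of miR-183-5p, miR-182-5p and miR-96-5p was among those higher in clean mice, at 2.19, 1.79 and 0.96, and miR-221-3p stood at -0.21 there and did not pass. In dirty mice miR-183-5p and miR-182-5p stood at 0.02 and 0.04 and did not pass, unlike miR-96-5p.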

How the data were processed

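The values are expected counts, that is, estimated counts per mature miRNA and hairpin that the authors deposited unscaled in 1 table of 2128 rows and 11 libraries, with 88.7% of values whole. The genome build is mm10 per the submitters' processing notes. The aligner, the counting program and the treatment of reads with several matches are not given in the sources used here. Per the labels' protocols, the NEBNext kit was used on 60 to 100 ng of RNA.

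Rows identical in name and values were kept once, which left 2008, and counts were rounded before fitting. The edgeR 4.0.16 quasi-likelihood model (TMM, filterByExpr, robust) had 1 mean per group and took in all libraries, with Benjamini-Hochberg adjustment over 545 rows and a threshold of 0.05. Tests were two-sided. SEs were worked back from the p-values. The script was tested on simulated data. Alternatives used DESeq2 1.42.0, limma-voom 3.58.1, other scaling and filters, depth classes, the replicate number and libraries left out in turn. Arms were compared by an exact permutation test. Hairpins were folded with RNAfold 2.7.2.

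The rows and lists were chosen with earlier results of these data known. Named miRNAs are the members, their seed partner, the 5 rows most correlated with miR-21a-5p and with miR-21a-3p at a mean of 10 CPM or more (log2 CPM, prior count 2), the leading or absent members of each marker list, and activation-list members that passed for dirty minus clean or the interaction. None passed there, and those named for VM minus TN were chosen after their values were seen, as were the markers given singly.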

Additional observations from a re-analysis of the deposited data

How the results depend on the processing

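Of 252 values of the 3 members under alternatives other than leaving out a library, 239 kept their direction and side of the threshold, or moved by less than the spread, as did 220 of 231 with a library left out. For miR-21a-5p, dirty minus clean in VM passed the threshold with library totals (0.97, adjusted edgeR p 0.034), DESeq2 (0.80, 0.0036), limma-voom (0.87, 0.039), no filter beyond 1 count (0.79, 0.0186), a filter of 10 CPM (0.85, 0.048) and only the groups compared (0.83, 0.0027), and averaged with DESeq2 (0.59, 0.0143) and limma-voom (0.67, 0.0445). The cause was not tested. VM minus TN in clean mice was 1.47 with library totals and 1.45 in shallow libraries. miR-21a-3p reversed in the averaged comparison, to -0.34 in shallow libraries and -0.035 without Dirty_TN replicate 3, and in shallow libraries its VM minus TN was 3.21 in dirty mice and 2.12 averaged. The filter of 10 CPM left it without a value.

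Counts of calls for dirty minus clean in VM were 2 with library totals, 14 with DESeq2, 1 with limma-voom, 16 without a filter, 2 at 10 CPM and 18 with only the groups compared. In TN they were 3 with DESeq2 and 4 without a filter, averaged 1 with DESeq2, limma-voom or no filter and 4 in shallow libraries, and for the interaction 25, 30, 16 and 1 with DESeq2, no filter, 10 CPM and shallow libraries. VM minus TN gave 17 (shallow) and 10 (deep) in dirty mice against 66, 30 and 27 in clean mice against 95, and 35 and 47 averaged against 129. The activation list with DESeq2 gave 2 higher in TN, and 1 higher and 2 lower for the interaction.

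With 1 library left out, miR-21a-5p ran between 0.71 and 0.97 for dirty minus clean in VM, 0.12 and 0.51 in TN, 0.31 and 0.70 for the interaction, 1.99 and 2.26 for VM minus TN in dirty mice and 1.46 and 1.70 in clean mice. miR-21a-3p ran between 0.74 and 1.34 for dirty minus clean in VM, -1.22 and -0.40 in TN and -0.035 and 0.38 averaged, and between 1.33 and 2.38 for the interaction and 0.43 and 0.78 for VM minus TN in clean mice. miR-21b ran between 0.90 and 1.40 for dirty minus clean in VM, -0.85 and -0.04 in TN, 1.21 and 2.12 for the interaction and 2.06 and 2.87 for VM minus TN in dirty mice, with 0.47 and 1.02 in clean mice. Calls ran between 0 and 26 in VM, 0 and 28 in TN and 0 and 73 for the interaction, with the highest of each without Dirty_TN replicate 3, and between 42 and 94 for VM minus TN in dirty mice and 33 and 120 in clean mice. The activation list ran between 0 and 1 higher in VM, 0 and 2 higher and 0 and 2 lower in TN, and 0 and 4 higher and 0 and 2 lower for the interaction.

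Same-numbered libraries deviated together, at a correlation over 0.1, in 6 of 15 pairs (-0.55 to 0.42), so the numbers were not taken as pairs. These correlations followed depth class: the 6 same-numbered pairs of 1 depth class had 0.113 to 0.416, and the 9 of different classes were all below 0. Pairs with different numbers and 1 depth class had 0.041 to 0.554, with 15 of 16 over 0.1. Across classes, 13 of the 14 pairs with different numbers were below 0. Whether the numbers mark pairs was not tested. With the replicate number as a block, dirty minus clean for miR-21a-5p in VM was 0.85 with an adjusted edgeR p of 0.128, and 56 rows were called for VM minus TN in clean mice. Depth limits the 3p arm and miR-21b, whose lowest libraries held 3 and 8 counts.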

Other observations

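Among 102 hairpins with both arms counted and 10000 or more counts on the major arm, mir-21a was the 9th most unequal, at an absolute log2 ratio of 12.98 over all libraries against a median of 6.79. miR-21b as a percentage of miR-21a-5p counts was 0.0191 to 0.0320 in Dirty_VM, 0.0146 to 0.0199 in Clean_VM, 0.0130 to 0.0224 in Dirty_TN and 0.0280 to 0.0348 in Clean_TN. The Clean_TN libraries were above those of Clean_VM and Dirty_TN and overlapped Dirty_VM.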
